A study of Mus musculus with 12 samples.

Results

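The TCF/LEF family is the small group of DNA-binding proteins through which β-catenin acts on genes. It was described here from every probe set annotated to its 4 mouse genes. Of these, 3 had a probe set: Lef1 with 2, Tcf7l1 with 2 and Tcf7l2 with 4, together 8 of the 45037 probe sets tested; Tcf7 was not analysed here. Arrays with 1 colour read total RNA from the spinal cord of mice, 12 samples in all. At day 4 there were 3 biological replicates of Olig2cre/DA-Cat mice (the mutants) and 3 of their wild-type littermates, and the same numbers of each were taken at day 15. Olig2cre drives recombination in cells with a history of Olig2 expression, which include oligodendrocyte lineage cells and motor neurons, and DA-Cat is known as a dominant-active β-catenin allele that Cre switches on. No group carried Cre alone, so the share of Olig2cre, inserted at Olig2, and that of DA-Cat in any difference cannot be told apart. The labels tag day as a developmental stage, whereas their protocol has adults of 8 to 10 weeks injected with 1% lysolecithin or left unlesioned, with lesions taken 14 days later; what the days count from is not known, and how many animals a sample holds is not given. P-values test differences of group means against the spread between replicates, estimated over all groups together.

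TCF/LEF proteins bind the same short DNA word through a shared HMG box. Without β-catenin they hold target genes down together with Groucho/TLE corepressors; when a Wnt signal stabilises β-catenin, it displaces these and recruits BCL9, Pygopus and other coactivators. In vertebrates LEF1 mostly activates, TCF7L1 mostly represses, and TCF7L2 is known in the oligodendrocyte lineage as a factor of cells that have just begun to differentiate. TCF7L2 protein is often called TCF4, and TCF7L1 was long called TCF3, but the gene symbols Tcf3 and Tcf4 belong to E proteins, an unrelated basic helix-loop-helix family.

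As background, the family is also a target of its own pathway: Lef1 is a known β-catenin target in several tissues. The words searched were cores of the TCF/LEF site, namely CTTTGAA with its variant CTTTGAT, and CTTTGTA with its variant CTTTGTT. They were looked up on both strands in RefSeq start windows of assembly GRCm38.p6, each 300 bases long with 250 before and 50 after an annotated start. Of 7 windows of the 3 genes, 2 held a word (28.6%), against 5544 of 32851 windows of all genes (16.9%). Of 10 windows matched to 8 of the 15 Wnt feedback targets described below, 3 held a word, and the rest of that list was not searched. The Lef1 windows that begin at 131110047 and 131110073 overlap for most of their length. The 7 windows are thus not all separate, and they are too few to compare shares. The first Lef1 start window, the later Lef1 window with a word and the later Tcf7l2 window with a word are shown, all on the plus strand, with the word in capitals; they let the 2 matches be seen beside a window without one. In the Lef1 window the word reads TACAAAG and begins at position -147 from the start; in the Tcf7l2 window it reads CTTTGTT and begins at position -14. A match is a description of these letters and not a bound site.
Lef1 chr3:131110047-131110346: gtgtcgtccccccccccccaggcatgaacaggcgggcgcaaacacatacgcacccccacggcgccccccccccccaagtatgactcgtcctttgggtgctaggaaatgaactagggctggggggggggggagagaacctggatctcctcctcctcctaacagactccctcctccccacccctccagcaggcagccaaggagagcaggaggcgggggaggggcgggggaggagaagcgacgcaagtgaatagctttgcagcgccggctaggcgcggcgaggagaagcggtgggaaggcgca
Lef1 chr3:131156044-131156343: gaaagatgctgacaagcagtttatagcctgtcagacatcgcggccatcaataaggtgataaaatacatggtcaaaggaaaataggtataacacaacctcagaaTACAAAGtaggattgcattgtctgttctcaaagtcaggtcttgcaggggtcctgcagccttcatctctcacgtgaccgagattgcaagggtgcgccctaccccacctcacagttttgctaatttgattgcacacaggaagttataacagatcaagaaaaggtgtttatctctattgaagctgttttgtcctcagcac
Tcf7l2 chr19:55895071-55895370: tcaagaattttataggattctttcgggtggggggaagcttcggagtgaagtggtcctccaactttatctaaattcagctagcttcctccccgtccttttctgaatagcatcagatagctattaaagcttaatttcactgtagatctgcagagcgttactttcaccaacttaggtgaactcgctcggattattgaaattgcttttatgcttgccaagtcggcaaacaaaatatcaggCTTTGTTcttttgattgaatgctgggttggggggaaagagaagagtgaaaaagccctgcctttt
No word was found in the Tcf7l1 window at chr6:72788996-72789295 on the minus strand, the Tcf7l2 window at chr19:55741560-55741859 on the plus strand, or the remaining 2 Lef1 windows. Which start these tissues use cannot be read from the arrays.

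Of the whole series, array medians lay between 6.14 and 6.19 log2, and each array had a mean correlation of 0.993 to 0.997 with the other arrays of its group, across probe sets. The 27 bacterial control probe sets, which no mouse RNA should fill, had a median level of 3.10 log2. The source names give ventrolateral white matter, yet the mean level of 12 neuron markers was between 10.7 and 11.1 log2 on all arrays. Skeletal muscle markers had a mean level of 5.34 to 11.2 log2 over the 12 arrays, and of 5.46 to 11.2 within the day 15 Olig2cre/DA-Cat group, where replicate 1 was highest. Ctnnb1, the gene of β-catenin, had 3 probe sets and none passed the genotype test; its first had 13.22 ± 0.01 log2 in Olig2cre/DA-Cat against 13.27 ± 0.15 in wild type at day 4 (SD, n = 3 each). Where these probe sets lie relative to the altered part of the allele is not given, so their levels do not check the labels.

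In Olig2cre/DA-Cat spinal cord at day 4, Lef1 was higher and Tcf7l2 lower than in wild type, while Tcf7l1 did not pass the test. By limma with Benjamini-Hochberg adjustment over all probe sets and a threshold of 0.05, 1 of the 8 family probe sets rose and 2 fell, against 0.415% higher and 1.08% lower among all probe sets. The 2 that fell both belong to Tcf7l2 and are not independent of each other, and each call was lost without single day 4 arrays. The values of the genotypes did not overlap for 5 of the 8, against 24.2% of all probe sets.

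Lef1, the activator of the family, is described first. Its brighter probe set, 1454734_at, had 6.57, 6.48 and 6.63 log2 in Olig2cre/DA-Cat at day 4, against 5.87, 5.98 and 5.75 in wild type. All 3 mutant arrays lay above all 3 wild-type arrays, and the mutant mean was 6.56 ± 0.07, against 5.86 ± 0.12 (SD, n = 3 each). Lef1 rose by 0.70 log2 (SE 0.076, 95% interval 0.53 to 0.86), or 1.62-fold, with an adjusted p of 0.000246 in limma. The call held in each of the 22 alternative analyses in which the probe set was tested. At day 15 the levels were 6.20, 6.06 and 6.20 log2 in Olig2cre/DA-Cat, against 5.98, 5.90 and 5.88 in wild type. The groups again did not overlap, but the difference of 0.23 log2 (95% interval 0.069 to 0.40) had an adjusted p of 0.189 in limma and an unadjusted p of 0.00939. The genotype difference was 0.46 log2 smaller at day 15 than at day 4 (a difference of -0.46, SE 0.11), which did not pass after adjustment (limma adjusted p = 0.18, unadjusted p = 0.000955).

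The second Lef1 probe set, 1421299_a_at, is dim, with a mean of 3.98 log2 against 3.10 for the bacterial controls. At day 4 it had 4.63, 4.37 and 3.96 log2 in Olig2cre/DA-Cat, against 3.76, 3.91 and 3.55 in wild type. The groups did not overlap, the lowest mutant array lying just above the highest wild-type one. The difference of 0.58 log2 (SE 0.16) ran the same way as on the brighter probe set but had a limma adjusted p of 0.112; without Olig2cre/DA-Cat day 4 replicate 3 it was 0.76, with an adjusted p of 0.0421. At day 15 the probe set had 4.10 ± 0.27 log2 in Olig2cre/DA-Cat, against 3.77 ± 0.03 in wild type (SD, n = 3 each), a difference of 0.33 with a limma adjusted p of 0.425.

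Lef1 is also expressed in brain endothelium and T cells, so their markers are given beside it. Of 12 endothelial markers, 0 rose and 1 fell at day 4 by limma, the lipid transporter Mfsd2a, by 0.50 log2 (adjusted p = 0.0144; 0.0528 to 0.0819 without Olig2cre/DA-Cat day 4 replicates 2 or 3 or wild type day 4 replicates 1 or 3). Among all genes, taken by their brightest probe set, 0.561% were higher and 1.45% lower, so few calls in lists of this size are near the background. Their mean level per array was 8.30 to 8.33 log2 in Olig2cre/DA-Cat, against 8.32 to 8.40 in wild type. Of 10 T and lymphoid markers 0 passed by limma at day 4 and 4 had an unadjusted p under 0.05, a share not counted over all genes. The mean level of these 10 markers was 5.24 to 5.35 log2 in Olig2cre/DA-Cat, against 5.37 to 5.42 in wild type. In bulk tissue, fewer cells of a type and less RNA per cell cannot be told apart, nor can more cells and more RNA per cell.

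**Figure D1:**
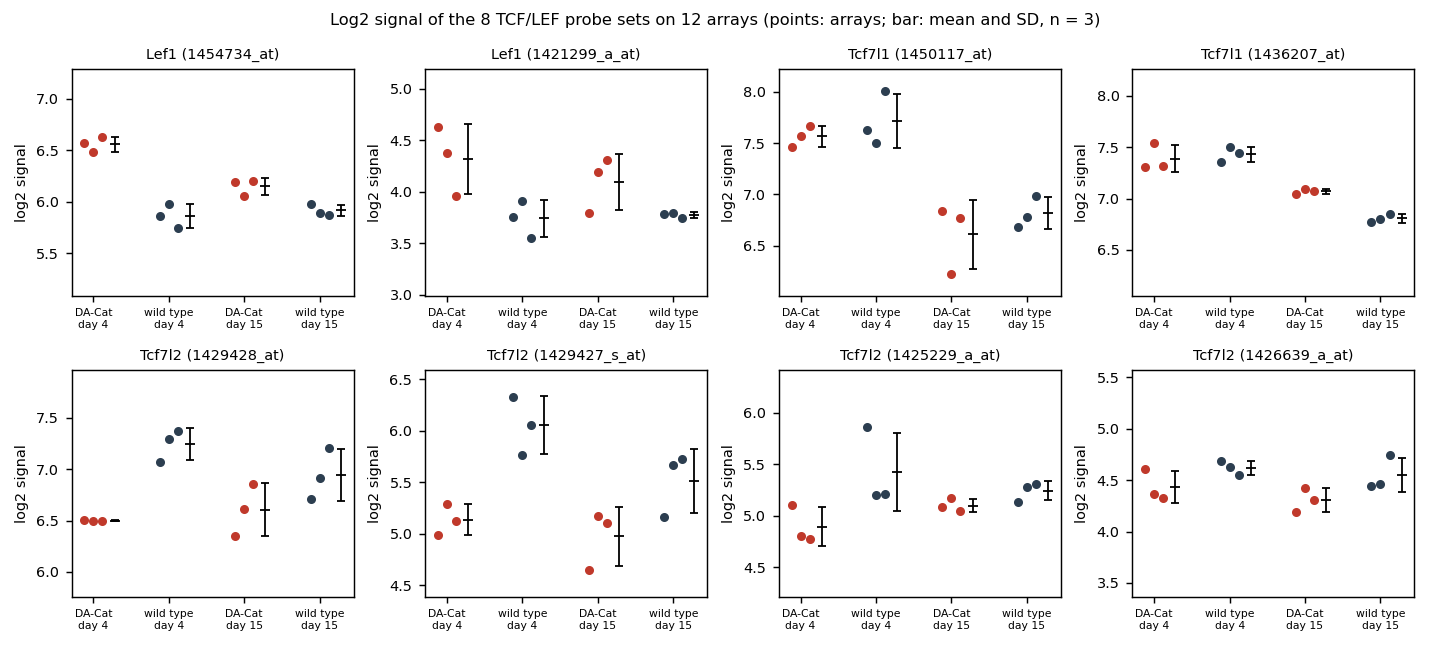
Levels of the 8 TCF/LEF probe sets, in log2 signal on the vertical axis, in each of the 12 arrays; points are arrays and bars are the mean and SD of each group. Lef1 1454734_at stands highest in Olig2cre/DA-Cat at day 4, at 6.48 to 6.63, and both Tcf7l1 probe sets stand lower at day 15 than at day 4.

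Tcf7l2, the member tied to newly differentiating oligodendrocytes, went the other way. Its brightest probe set, 1429428_at, had 6.50, 6.50 and 6.50 log2 in Olig2cre/DA-Cat at day 4, against 7.07, 7.29 and 7.37 in wild type. The mutant arrays were nearly equal and all lay below the wild-type arrays. Tcf7l2 fell by 0.75 log2 (SE 0.14, 95% interval -1.05 to -0.44), a 1.68-fold lower level, with an adjusted p of 0.0173 in limma. The direction held without any 1 array, with differences between -0.83 and -0.68, but the call was lost without any 1 of 5 of the 6 day 4 arrays. The adjusted p was 0.0761 and 0.0636 without wild type replicates 2 and 3, and 0.056, 0.0709 and 0.074 without Olig2cre/DA-Cat replicates 1, 2 and 3.

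A second Tcf7l2 probe set, 1429427_s_at, carries the same design accession in the annotation and so is not independent of the first. It had 4.99, 5.29 and 5.12 log2 in Olig2cre/DA-Cat at day 4, against 6.33, 5.77 and 6.06 in wild type. The groups did not overlap, and the level fell by 0.92 log2 (SE 0.18, 95% interval -1.31 to -0.52; limma adjusted p = 0.0255), a 1.89-fold lower level. Its call too was lost without single day 4 arrays: adjusted p-values were 0.129 and 0.0673 without wild type replicates 1 and 3, and 0.0864, 0.0534 and 0.103 without Olig2cre/DA-Cat replicates 1, 2 and 3.

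The dimmer Tcf7l2 probe sets, each with a design accession of its own, pointed down without passing. At day 4, 1425229_a_at had 5.11, 4.80 and 4.77 log2 in Olig2cre/DA-Cat, against 5.86, 5.20 and 5.21 in wild type, a difference of -0.53 (SE 0.15; limma adjusted p = 0.117) that was -0.32 without wild type day 4 replicate 1. Those groups did not overlap. On 1426639_a_at the levels were 4.43 ± 0.15 in Olig2cre/DA-Cat and 4.62 ± 0.07 in wild type (SD, n = 3 each), and the groups overlapped, with a difference of -0.19 and a limma adjusted p of 0.398. All 4 Tcf7l2 probe sets were thus lower in the mutant mean at day 4, by amounts between 0.19 and 0.92 log2.

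By day 15 no TCF/LEF probe set passed the genotype test in either direction: 0 of 8 by limma, against 0.258% higher and 1.36% lower among all probe sets. At an unadjusted limma p under 0.05 there were 5 of 8, and 4 of the 8 belong to Tcf7l2. The share of all probe sets under that unadjusted threshold was not counted for any contrast. The groups did not overlap for 3 of the 8, against 17.3% of all. Tcf7l2 1429428_at had 6.35, 6.62 and 6.86 log2 in Olig2cre/DA-Cat, against 6.71, 6.91 and 7.21 in wild type. These groups overlapped, and the difference of -0.33 (95% interval -0.64 to -0.034) had a limma adjusted p of 0.32. It was -0.20 without wild type day 15 replicate 3, -0.21 without Olig2cre/DA-Cat day 15 replicate 1, and -0.46 to -0.20 over all single arrays left out. On 1429427_s_at the levels were 4.64, 5.17 and 5.11 log2 in Olig2cre/DA-Cat, against 5.16, 5.66 and 5.73 in wild type. The groups overlapped by a narrow margin, and the difference was -0.54 (SE 0.18; limma adjusted p = 0.202). The remaining pair of Tcf7l2 probe sets had differences of -0.15 and -0.24. For 0 of the 8 probe sets did the change in genotype difference between days pass by limma, against 0.220% of all probe sets; 2 of 8 had an unadjusted p under 0.05, and for Tcf7l2 1429428_at that change was 0.41 log2, with a 95% interval of -0.015 to 0.84. So a smaller Tcf7l2 difference at day 15 than at day 4 was not shown.

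**Figure D2:**
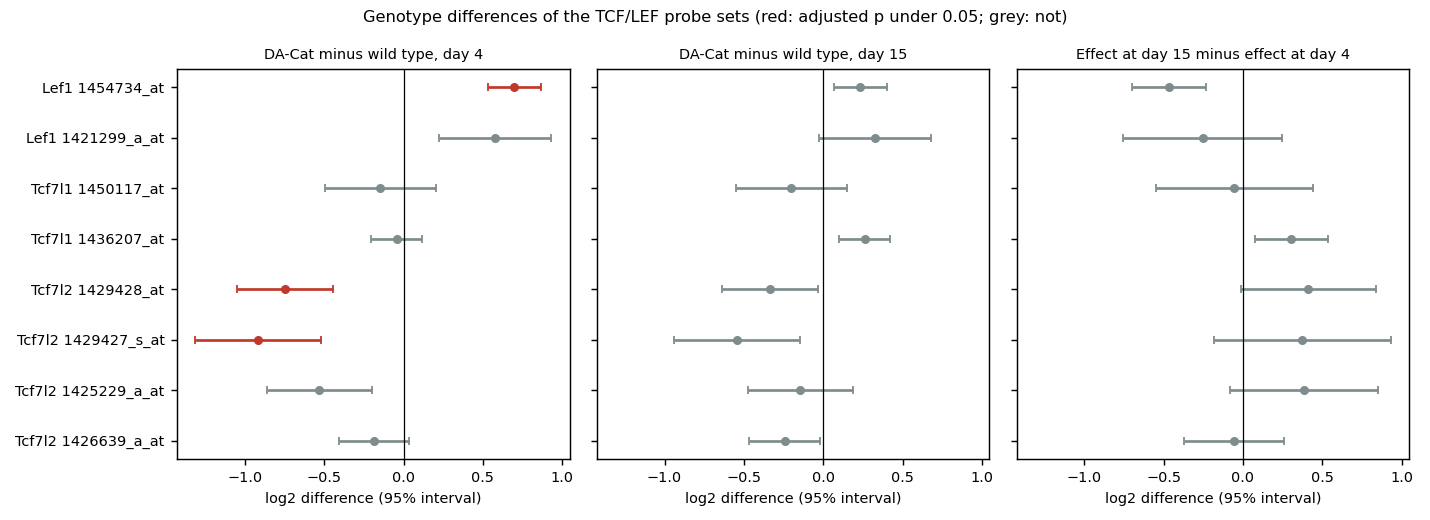
Genotype differences of the 8 probe sets in log2 (Olig2cre/DA-Cat minus wild type) for day 4, for day 15 and for the difference between days, as points with 95% intervals; red marks a limma adjusted p under 0.05. The marked probe sets are Lef1 1454734_at at 0.70 and the Tcf7l2 pair at -0.75 and -0.92, all at day 4.

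Tcf7l1, the repressor of the family, showed no genotype difference past the test on either day, and its 2 probe sets pointed opposite ways at day 15. On 1450117_at the levels at day 4 were 7.47, 7.56 and 7.66 log2 in Olig2cre/DA-Cat, against 7.63, 7.50 and 8.00 in wild type. The groups overlapped, with a difference of -0.15 (95% interval -0.50 to 0.20; limma adjusted p = 0.701). On 1436207_at they were 7.30, 7.54 and 7.32 in Olig2cre/DA-Cat, against 7.35, 7.50 and 7.45 in wild type, which also overlapped, with a difference of -0.04 (95% interval -0.21 to 0.12). At day 15, 1450117_at had 6.84, 6.23 and 6.77 log2 in Olig2cre/DA-Cat, against 6.68, 6.78 and 6.99 in wild type. This difference was -0.20 (95% interval -0.55 to 0.15). Yet 1436207_at had 7.04, 7.09 and 7.08 log2 in Olig2cre/DA-Cat, against 6.77, 6.80 and 6.85 in wild type, all mutant arrays above all wild-type ones. Its difference of 0.26 (95% interval 0.098 to 0.42) had a limma adjusted p of 0.127. Averaged over both probe sets, the Tcf7l1 difference at day 15 was 0.030 log2, so no direction can be given for the gene.

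Between the days, Tcf7l1 was the member that fell in both genotypes on each of its probe sets. In Olig2cre/DA-Cat, 3 of the 8 family probe sets fell and 0 rose by limma, against 18.7% lower and 17.0% higher among all probe sets. In wild type likewise 3 fell and 0 rose, against 16.5% lower and 16.5% higher. Such shares of all probe sets are large, so a day change was common on these arrays. The day groups did not overlap for 3 of 8 in each genotype, against 47.1% of all in Olig2cre/DA-Cat and 43.9% in wild type. Day and any batch of the arrays cannot be told apart.

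Tcf7l1 1450117_at averaged 6.61 ± 0.34 log2 at day 15 and 7.56 ± 0.10 at day 4 in Olig2cre/DA-Cat (SD, n = 3 each), and the days did not overlap. It fell by 0.95 (SE 0.16; limma adjusted p = 0.000435), a 1.93-fold lower level. In wild type it averaged 6.82 ± 0.16 at day 15 and 7.71 ± 0.26 at day 4, again without overlap, and fell by 0.90 (SE 0.16; limma adjusted p = 0.000779). On 1436207_at Olig2cre/DA-Cat averaged 7.07 ± 0.02 at day 15 and 7.39 ± 0.13 at day 4, and fell by 0.32 (limma adjusted p = 0.0045). In wild type it averaged 6.81 ± 0.04 at day 15 and 7.43 ± 0.07 at day 4, and fell by 0.62 (limma adjusted p = 3.09e-05). The gap between those 2 falls was 0.30 and did not pass (limma adjusted p = 0.483). Markers of neural progenitors moved with Tcf7l1: 7 of 8 fell in Olig2cre/DA-Cat and 8 of 8 in wild type, against 25.0% and 21.8% of all genes, with median differences of -0.96 and -0.87. Their mean level per array was 8.62 to 8.83 log2 at day 15, against 9.66 to 9.89 at day 4, in Olig2cre/DA-Cat, and 8.59 to 8.91 at day 15, against 9.64 to 9.71 at day 4, in wild type. Their part in the Tcf7l1 result was not tested.

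Lef1 fell with day in the mutant and not detectably in wild type. In Olig2cre/DA-Cat, 1454734_at averaged 6.15 ± 0.08 log2 at day 15 and 6.56 ± 0.07 at day 4 (SD, n = 3 each), without overlap, a fall of 0.41 (limma adjusted p = 0.000861). In wild type it averaged 5.92 ± 0.05 at day 15 and 5.86 ± 0.12 at day 4, which differ by 0.05 (95% interval -0.11 to 0.22; limma adjusted p = 0.664). The gap between those day effects is the same contrast as the change in genotype difference given above, which did not pass. In order of level, this probe set was highest in Olig2cre/DA-Cat at day 4, then in Olig2cre/DA-Cat at day 15, then in wild type at day 15 and at day 4. Olig2cre/DA-Cat at day 4 differed from its neighbour past the adjusted test; the other neighbours in the order did not differ past it.

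Tcf7l2 passed no day test on its brightest probe set. The difference was 0.11 log2 in Olig2cre/DA-Cat (limma adjusted p = 0.606) and -0.30 in wild type (limma adjusted p = 0.12). Without wild type day 15 replicate 3 the wild-type difference was -0.44, with an adjusted p of 0.0273. On 1429427_s_at the wild-type level averaged 5.52 ± 0.31 at day 15 and 6.05 ± 0.28 at day 4 (SD, n = 3 each), and fell by 0.54 (limma adjusted p = 0.0378). That call was lost without wild type day 15 replicate 1 (adjusted p = 0.165) and without wild type day 4 replicates 1 and 3 (0.158 and 0.0851). In order of level, 1429428_at was highest in wild type at day 4, then in the day 15 wild type, the day 15 mutant and last the day 4 mutant. Of the neighbours in that order, none differed past the adjusted test; wild type and Olig2cre/DA-Cat at day 4, its ends, did.

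At day 4 markers of the oligodendrocyte lineage were lower along with Tcf7l2, which is one of its genes. Between the days its myelin markers and part of its newly formed markers rose, and Tcf7l2 did not. Of 14 markers of newly formed oligodendrocytes, 12 fell and 0 rose at day 4, against 1.45% lower and 0.561% higher among all genes, with a median difference of -0.89 log2, against 0.03 over all genes. They included Enpp6, a choline phosphodiesterase, which fell by 2.18, and Myrf, a transcription factor that switches on myelin genes, which fell by 1.83. Their mean level per array was 8.71 to 8.84 log2 in Olig2cre/DA-Cat, against 9.78 to 9.84 in wild type. Of 10 precursor markers 5 fell and 0 rose, with levels of 9.05 to 9.08 in Olig2cre/DA-Cat, against 9.51 to 9.53 in wild type. The smallest p-values in this list were those of Tnr (-0.92), Olig2, Sox10 (-1.06) and C1ql1 (-0.42). Precursor markers outside the 5 did not pass, and 1 of the 10 had a difference above 0. Olig2, the gene at which Olig2cre is inserted, was among those that fell, by 0.90 (limma adjusted p = 0.000243). The part of the insertion in that value was not tested. Of 12 myelin markers 11 fell and 0 rose, with levels of 8.18 to 8.35 in Olig2cre/DA-Cat, against 10.3 to 10.5 in wild type. At day 15 the myelin list still had 10 of 12 lower and 0 higher, against 1.82% lower and 0.368% higher among all genes, with a median difference of -0.70. Its level was 11.6 to 11.9 log2 in Olig2cre/DA-Cat, against 12.3 to 12.4 in wild type, without overlap; 5 markers passed without Olig2cre/DA-Cat day 15 replicates 1 or 3 or wild type day 15 replicate 1. The newly formed list had 3 lower and 0 higher at day 15, and 1 lower without Olig2cre/DA-Cat or wild type day 15 replicate 1. Its level was then 9.73 to 10.2 log2 in Olig2cre/DA-Cat, against 10.1 to 10.4 in wild type. Of the precursor markers 2 were lower and 0 higher at day 15, and 0 to 2 were lower without any 1 array. Olig2 was again among the lower markers, at -0.44 (limma adjusted p = 0.0436). The part of these lists in the Tcf7l2 result was not tested. Within the day 15 mutant group, replicate 1 had the lowest Tcf7l2 level, the lowest newly formed level and the highest muscle level, 11.2 against 5.46 and 8.92 log2 in replicates 2 and 3; its part was not tested, and the Tcf7l2 difference did not pass with it or without it.

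Between the days the myelin markers rose in both genotypes, and the newly formed markers rose in part. Of 12 myelin markers 12 rose in Olig2cre/DA-Cat and 12 in wild type, against 20.1% and 19.9% of all genes, with median differences of 3.21 and 1.64 log2. Of 14 newly formed markers 11 rose and 0 fell in Olig2cre/DA-Cat, with a median of 1.54, and 6 rose and 0 fell in wild type, with a median of 0.34. Of 10 precursor markers 4 rose and 2 fell in Olig2cre/DA-Cat, and 3 rose and 4 fell in wild type. Among all genes 25.0% fell in Olig2cre/DA-Cat and 21.8% in wild type, so precursor counts of this size are not far from the background. The day differences of Tcf7l2 1429428_at given above, 0.11 and -0.30, passed in neither genotype, and 1429427_s_at fell in wild type. Nkx2-2, of the newly formed list, also passed in neither, at 0.16 in Olig2cre/DA-Cat and -0.17 in wild type (limma adjusted p = 0.458 and 0.435).

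**Figure D3:**
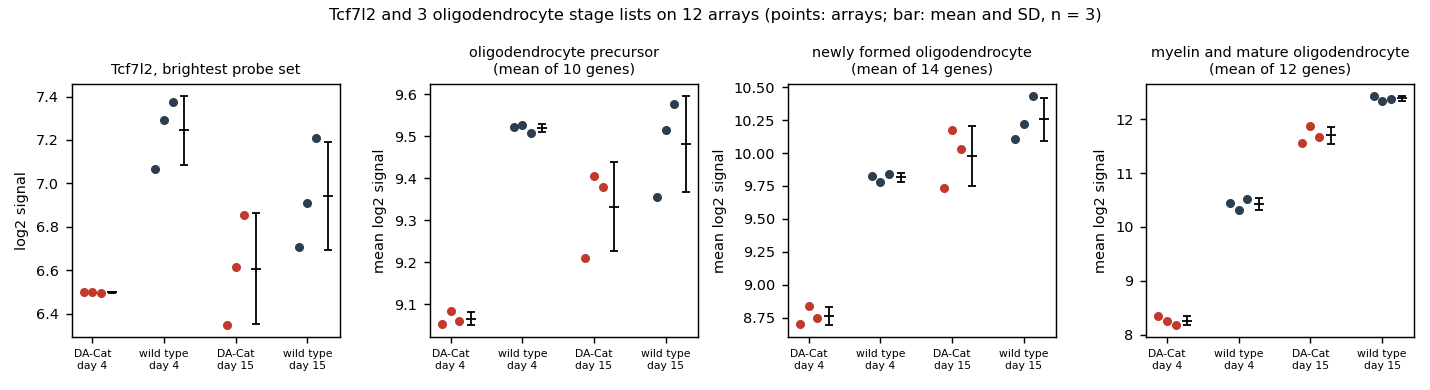
Tcf7l2 1429428_at and the mean levels of 10 precursor, 14 newly formed and 12 myelin markers, in log2 signal per array, with the mean and SD of each group. At day 4 the 3 Olig2cre/DA-Cat arrays lie below the 3 wild-type arrays in every panel. At day 15 the genotypes overlap for Tcf7l2, the precursor list and the newly formed list, and not for the myelin list.

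The genes with the level profile most like each member over the 12 arrays were found by the smallest root-mean-square difference of centred log2 values. For Tcf7l2 they were Vxn (0.129), Nkx2-2 (0.151), Cdyl (0.182), Pxdc1 (0.186) and Tmem163 (0.187). Vxn, a neural differentiation factor, differed by -0.80 log2 at day 4. Nkx2-2, a homeobox factor of the oligodendrocyte lineage and a member of the newly formed list, differed by -0.77. Cdyl, Pxdc1 and Tmem163 differed by -0.35, -0.46 and -0.30 at day 4. These genes were chosen for likeness to Tcf7l2 on the same arrays, so such differences are part of the choice and not separate support. For Lef1 the 5 were Fzd1 (0.136), a Wnt receptor, then Tom1l1 (0.148), E4f1 (0.152), Atxn7 (0.166) and Lta4h (0.167). For Tcf7l1 they were Ybx3 (0.143), Fam189a1 (0.171), Wasf1 (0.172), Eif3f (0.174) and Bcl9 (0.175), the last a β-catenin coactivator from the partner list described next. The arrays of a profile share their libraries, and likeness of level is given as a description.

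The lists of TCF/LEF partner proteins held no gene that passed the genotype test, which for lists of this size is near the background: 0.561% higher and 1.45% lower among all genes at day 4, and 0.368% and 1.82% at day 15. Of 17 coactivator genes 0 passed by limma at day 4 and 5 had an unadjusted p under 0.05, with 14 differences above 0, a median of 0.12 log2 against 0.03 over all genes, and a range of -0.05 to 0.27. Shares of all genes at an unadjusted p under 0.05, or above 0, were not counted, so such counts show no rise of either partner list. The highest coactivator was Ldb1, an adaptor of the β-catenin enhanceosome, with 8.34, 8.50 and 8.36 log2 in Olig2cre/DA-Cat, against 8.05, 8.13 and 8.19 in wild type. Its groups did not overlap, but the adjusted p was 0.0976 in limma. At day 15, 0 of 17 passed by limma, 2 at an unadjusted p under 0.05, and the median was -0.0012. Of 19 corepressors and inhibitors 0 passed by limma on either day, with 5 and 2 at an unadjusted p under 0.05 on day 4 and day 15 and medians of 0.04 and -0.05. Mdfic, which interacts with the family and inhibits its activity, had the highest difference of that list on each day, 0.33 at day 4 (limma adjusted p = 0.121) and 0.34 at day 15 (limma adjusted p = 0.117).

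With day, the partners changed as many genes did. Of the coactivators, 11 fell and 2 rose in Olig2cre/DA-Cat, and 7 fell and 3 rose in wild type, against 25.0% lower and 20.1% higher among all genes in Olig2cre/DA-Cat and 21.8% and 19.9% in wild type. Without Olig2cre/DA-Cat day 4 replicate 2, 6 coactivators fell in the mutant; in wild type 3 fell without wild type day 15 replicate 1 and 4 without day 4 replicate 1. Bcl9, which bridges β-catenin to Pygopus, fell by 1.18 in Olig2cre/DA-Cat and by 0.93 in wild type; Cdc73, a transcription elongation factor, rose by 0.80 in Olig2cre/DA-Cat and by 0.77 in wild type. Of the corepressors, 9 fell and 4 rose in Olig2cre/DA-Cat, and 8 fell and 4 rose in wild type; 2 rose in the mutant without Olig2cre/DA-Cat day 15 replicate 3 or day 4 replicate 1. Tle2, a Groucho-family corepressor, fell by 1.01 in Olig2cre/DA-Cat and by 0.69 in wild type, whereas Hbp1, a TCF inhibitor, rose by 0.52 in Olig2cre/DA-Cat and by 0.61 in wild type.

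Known targets of TCF/LEF and β-catenin had differences that reached well beyond those of the family. Of 15 Wnt feedback targets, 8 rose and 1 fell at day 4, against 0.561% higher and 1.45% lower among all genes, with a median difference of 0.63 log2. At day 15, 5 rose and 0 fell, against 0.368% higher and 1.82% lower, with a median of 0.30; 3 rose without wild type day 15 replicate 1. Axin2, a scaffold that destabilises β-catenin, had 8.94, 8.80 and 8.95 log2 in Olig2cre/DA-Cat at day 4, against 7.95, 7.75 and 7.83 in wild type. Those groups were far apart, with a difference of 1.05 (limma adjusted p = 1.81e-05). At day 15 Axin2 had 7.83, 7.97 and 7.81 in Olig2cre/DA-Cat, against 7.24, 7.31 and 7.51 in wild type, a difference of 0.51 (limma adjusted p = 0.0102; 0.0568 without wild type day 15 replicate 1). Nkd1, an inhibitor of the Wnt transducer Dishevelled, had 10.2, 9.74 and 9.91 log2 in Olig2cre/DA-Cat at day 4, against 7.97, 7.55 and 7.88 in wild type. It rose by 2.15 there and differed by 0.30 at day 15 (limma adjusted p = 0.384), and the change between days of -1.85 itself passed (limma adjusted p = 0.00093). Wif1, a secreted Wnt antagonist, rose by 2.83 at day 4 and by 2.85 at day 15. The target that fell at day 4 was the cyclin Ccnd1, named after its value was seen, by 0.54 (limma adjusted p = 0.0391), a call lost without any 1 of the day 4 arrays other than Olig2cre/DA-Cat replicate 1, and without Olig2cre/DA-Cat day 15 replicate 1 or wild type day 15 replicates 1 or 2 (adjusted p = 0.0512 to 0.18). Lef1 itself, at 0.70 and 0.23, lay near the medians of this list, to which it was not assigned.

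**Figure D4:**
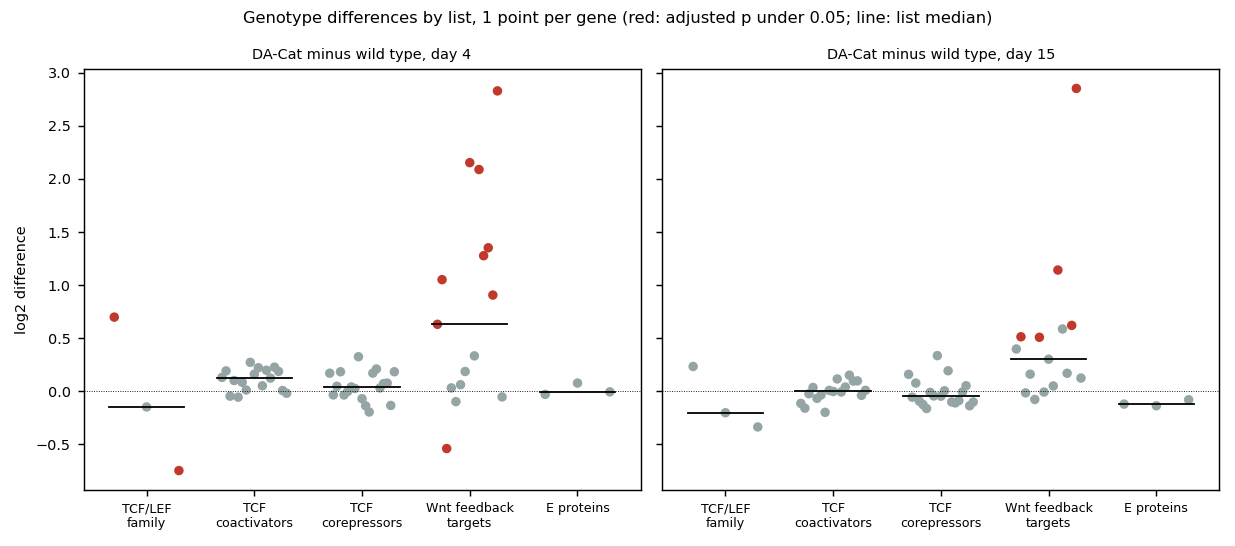
Genotype differences in log2 (Olig2cre/DA-Cat minus wild type) for each day, over the TCF/LEF genes, their coactivators, their corepressors and inhibitors, Wnt feedback targets and E proteins; each point is a gene by its brightest probe set and each line is the list median. Feedback targets reach 2.83 at day 4, while coactivators stay between -0.05 and 0.27.

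The E proteins, which share names with the family, were set beside it to keep the names apart. Their levels cannot check which symbol a probe set carries. At day 4 Tcf3 differed by 0.08 log2, Tcf4 by -0.0046 and Tcf12 by -0.03, and at day 15 the differences were -0.14, -0.08 and -0.12; 0 of 3 passed by limma on either day, also at an unadjusted p under 0.05. With day, Tcf3 fell by 0.47 in Olig2cre/DA-Cat (limma adjusted p = 0.000565) and by 0.25 in wild type (limma adjusted p = 0.0309, and 0.0693 to 0.11 without wild type day 15 replicates 1 or 2 or wild type day 4 replicates 2 or 3).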

How the data were processed

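Total RNA of 12 mouse spinal cord samples was biotin-labelled and hybridised to Affymetrix 3′ expression arrays, per the labels. The deposited values are 1 log2 signal for each probe set and array; the scale was judged from the values. The background correction, probe summary and normalization are not given in the sources used here. The table held 45101 probe sets; 64 Affymetrix controls were left out. The platform annotation gave 34945 of the rest 1 gene symbol, 932 several and 9160 none, and 34741 matched a RefSeq gene table by Entrez identifier, with 0 symbols changed.

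A mean for each group was fitted over all 12 arrays with the limma package, version 3.58.1 (R 4.3.3; lmFit and eBayes with 8 residual degrees of freedom), with two-sided p-values Benjamini-Hochberg adjusted over the 45037 probe sets and a threshold of 0.05. Genes in lists are represented by their brightest probe set, which gave 18193 genes. The family members and lists were chosen with earlier results of these data known. Named were all family probe sets, the list members with the smallest p in the genotype contrasts, and the 5 genes most like each member in profile; the other partner and lineage genes given were picked after their values were seen. Array data carry no read depth, and the number of arrays limits the precision. Alternatives changed the variance model, normalization, dim-probe filter, unit of the fit, array weights, block, muscle covariate and arrays included.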

Additional observations from a re-analysis of the deposited data

Results flagged for a closer look

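The genotype difference of the Wnt feedback gene Nkd1 changed between days by -1.85 log2 in the test of that change itself (limma adjusted p = 0.00093), being 2.15 at day 4 and 0.30 at day 15. That of Enpp6, of the newly formed oligodendrocyte list, changed by 1.54 log2 in the same test, being -2.18 at day 4 and -0.65 at day 15; the day 15 call was lost without any 1 of 10 of the 12 arrays (limma adjusted p = 0.0599 to 0.149). No TCF/LEF probe set passed that test, and groups of 3 arrays were not searched for single arrays that stand apart.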

How the results depend on the processing

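At day 4 the 673 calls of the genotype effect (187 higher, 486 lower) became 1232 without the dimmest 50% of probe sets (605 and 627), 1926 with array weights (950 and 976), 435 with the replicate block (88 and 347), and 330 to 772 without any 1 array. At day 15 the 729 calls (116 and 613) became 1121 with trend and robust settings (251 and 870), 1162 without the dimmest 50% (271 and 891), 473 with the mean of a gene's probe sets, 347 with the replicate block, 364 with the muscle level as a covariate, 82 from the arrays compared alone (11 and 71), and 341 to 1058 without any 1 array. The 99 changes between days became 64 with 1 probe set per gene, 56 with the mean of probe sets, 55 with the replicate block, and 70 to 113 without any 1 array. The 16088 day calls in Olig2cre/DA-Cat became 8743 and 8350 with 1 probe set per gene and with the mean, and the 14892 in wild type 8159 and 7771; fewer features were tested there. No pairing by replicate number was shown: deviations of same-numbered arrays correlated at -0.14 to 0.16, which cannot tell whether such samples were handled together. With the block the dim Tcf7l2 probe set 1425229_a_at passed at day 4 (limma adjusted p = 0.0398); day effects have no block fit, since each block lies within 1 day.

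Lef1 1454734_at kept its day 4 call in 22 of 22 alternatives (0.64 to 0.76), and was not among the brighter 50%; Tcf7l2 1429428_at kept it in 18 of 23, its differences without any 1 array being -0.83 to -0.68. Tcf7l1 1450117_at was -0.25 to -0.00043 at day 4 without any 1 array. It moved to 0.030 at day 15, and to 0.12 in the change between days, with the mean of probe sets; without any 1 array these were -0.32 to -0.0088 and -0.20 to 0.14. The day effect on Tcf7l2 1429428_at in wild type was -0.37 with array weights (adjusted p = 0.0353) and -0.44 to -0.19 without any 1 array, and in Olig2cre/DA-Cat -0.017 to 0.24; that on Lef1 1454734_at in wild type was -0.0056 to 0.11. Reversed were the day effects in Olig2cre/DA-Cat of Acta1, to -1.35 with the muscle covariate, and of Atxn7, Lta4h and Ssbp2, to 0.017, 0.075 and -0.27 with the mean of probe sets, and that of Ssbp2 in wild type, to -0.35. The causes were not tested. The dimmest member probe sets lay near the bacterial controls, which limits what they can show.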
